A study of Homo sapiens with 30 samples.

Results

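Integrins, laminins and fibronectin are the genes by which a cell builds and grips its surrounding matrix, and 38 of them were followed while H7 human embryonic stem cells were turned into cardiomyocytes. The set was chosen by name from the 41495 entries of the time-course table: 17 integrin alpha chains, 8 integrin beta chains, 12 laminin chains (5 alpha, 4 beta and 3 gamma) and FN1, which encodes fibronectin. The rule uses names and no measured value, though it was written with earlier results of these data known, and all 38 names were found.

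H7 is an established embryonic stem cell line, seeded here with the ROCK inhibitor Y27632 and grown in E8 medium on Synthemax II, a synthetic culture surface. The 30 libraries fall into 15 groups of 2, of which 11 groups are time points and 4 are sorted populations, all derived from H7. The time points are undifferentiated cells (hESC), days 1, 2, 3, 4, 5, 6, 8, 10 and 15 (D1 to D15) and day 31 cardiomyocytes purified on Percoll density gradients. Differentiation used 12 µM CHIR99021, a GSK3 inhibitor that activates WNT signalling, for 24 hours in a medium with B27 minus insulin. It went on with 5 µM IWP4, which blocks WNT secretion, for 2 days in that medium, and then in a medium with complete B27. At D3, ROR2-positive cells (PMESO) were sorted from ROR2-negative cells, and at D4 cells positive for ROR2 and PDGFRa (CMESO) were sorted from ROR2-positive, PDGFRa-negative cells. Nothing in the labels tells if both libraries of a group had a culture of their own, and all come from 1 cell line.

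An integrin is a receptor of 1 alpha and 1 beta chain that ties matrix outside the cell to the actin skeleton inside. Some integrins bind fibronectin and other proteins through the short amino acid motif RGD, others bind laminin or collagen, and a further group serves adhesion between leukocytes and other cells. Laminins are trimers of 1 alpha, 1 beta and 1 gamma chain and form the base of basement membranes. Heart muscle is known for laminin with the alpha2 chain and for the laminin receptor with the alpha7 chain, while fibronectin marks migrating mesoderm and fibroblasts.

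The values are FPKM, fragments per kilobase of transcript scaled to library size, so levels can be compared between genes per length. The time-course table gives 1 FPKM value per gene and time point, which leaves no spread between libraries and no test, and the differences over time below are values only. A gene is called higher or lower where log2(FPKM + 1) differed by at least 1, termed 2-fold. Of the 38 genes 37 reached 1 FPKM at some time point. LAMB4, a little studied beta chain, did not (highest 0.392 FPKM) and enters no count over time. The same rule was applied to all 14563 protein-coding genes that reached 1 FPKM, and their share called is given beside each count.

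The columns differ as wholes. Summed FPKM ranged from 617580 at D15 to 1429860 in hESC, and small RNAs held from 12.0% of it at D1 to 38.8% at D5, with 37.6% in hESC. Scaling every column to 1 common sum moved the median change of the protein-coding genes from 0.02 to 0.76 (log2) between hESC and D1 and from 0.01 to 0.77 between hESC and cardiomyocytes. In the authors' deposited sort tables the sorted receptors followed their gates: ROR2 stood at 5.90 FPKM in ROR2-negative and 71.96 in ROR2-positive D3 cells, and PDGFRA at 8.28 and 303.9 in the D4 populations. Cardiomyocyte markers (TNNT2, MYH6, ACTN2, MYL7 and ACTC1) summed to 17.8 FPKM in hESC and 11091 in day 31 cells. In bulk RNA fewer cells of a type and less RNA per cell cannot be told apart.

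The upstream sequences of the genes that lead the results below are shown first, because they are the stretches through which such genes are controlled. RefSeq promoter windows (GRCh38.p14) were found for 27 of the 38 genes. FN1 is the most abundant gene of the set, and LAMA2 is the laminin alpha chain of muscle. ITGA8 had the largest of the authors' fold changes in the D3 sort, from 0.206 FPKM in the negative cells. On the log2(FPKM + 1) scale ITGA9 differed more there (3.21 against 3.03). The 250 bases before the annotated start are printed for FN1, ITGA8 and LAMA2. Each is 5′ to 3′ on the strand of its gene, and capitals mark a cyclic AMP response element (TGACGTCA), a CCAAT box (CCAAT) or a GC box (GGGCGG), each on either strand.

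FN1 (chr2:215436069-215436318, minus strand): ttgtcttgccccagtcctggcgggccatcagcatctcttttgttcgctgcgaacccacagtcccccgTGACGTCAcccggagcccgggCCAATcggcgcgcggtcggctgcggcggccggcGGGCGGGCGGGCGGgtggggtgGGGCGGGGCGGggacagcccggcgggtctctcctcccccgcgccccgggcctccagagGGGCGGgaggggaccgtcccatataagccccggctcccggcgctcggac
ITGA8 (chr10:15719923-15720172, minus strand): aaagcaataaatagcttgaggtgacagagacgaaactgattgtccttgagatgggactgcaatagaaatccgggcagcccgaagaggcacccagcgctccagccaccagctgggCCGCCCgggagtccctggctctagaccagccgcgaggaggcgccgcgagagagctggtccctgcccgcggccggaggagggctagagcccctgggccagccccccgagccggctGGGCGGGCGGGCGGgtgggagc
LAMA2 (chr6:128882888-128883137, plus strand): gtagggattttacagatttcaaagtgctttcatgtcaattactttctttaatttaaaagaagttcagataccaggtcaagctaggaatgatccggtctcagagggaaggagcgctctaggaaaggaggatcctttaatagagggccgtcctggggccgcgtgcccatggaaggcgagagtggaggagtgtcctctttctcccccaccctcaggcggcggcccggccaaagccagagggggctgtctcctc

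The FN1 window holds the cyclic AMP response element 183 to 176 bases before the start, a CCAAT box 162 to 158 bases before it, and 6 GC boxes, some of which overlap each other. That response element was found in FN1 alone among the 27 genes and in 2.03% of the 27305 genes with such windows. GC boxes were found in 15 of the 27 genes (55.6%) against 46.2% of all, and CCAAT boxes in 6 (22.2%) against 37.0%. G and C made up 76.4% of the FN1 window, 68.0% of that of ITGA8 and 53.2% of that of LAMA2, which holds none of these 3 motifs. A match of letters is a description and not a binding site.

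FN1 was higher at each time point than at the one before, up to D15. The gene spans chr2:216225163-216300895 in hg19, the build of the authors' tables. It stood at 29.3 FPKM in hESC, 73.6 at D1, 100.0 at D2, 191 at D3, 259 at D4 and 421 at D5. It went on to 653 at D6, 710 at D8, 762 at D10 and 2880 at D15, and stood at 605 in day 31 cardiomyocytes. It was thus highest in unpurified D15 cells, also with columns scaled to equal sums. On the unscaled values the purified cells lay below D6. Their column also had the lower summed FPKM (730619 against 909401 at D6), and this order depends on the scaling. By level it ranked 3181 among the protein-coding genes in hESC, 363 at D3, 67 at D10, 8 at D15 and 91 in cardiomyocytes. Against LAMC1, the common laminin gamma chain, FN1 stood at 0.247 times in hESC, 3.14 times at D3 and 12.7 times at D15.

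The 5 protein-coding genes whose log2(FPKM + 1) followed FN1 most closely over the 11 time points were ARSA (Pearson r 0.99), COLGALT2 (0.97), DPY19L2 (0.97), LGI2 (0.97) and CERS6 (0.96). ARSA encodes the lysosomal enzyme arylsulfatase A, COLGALT2 a galactosyltransferase of collagen, and CERS6 a ceramide synthase. All 5 were highest at D15, like FN1, but at far lower levels, with ARSA at 2.07 FPKM in hESC and 11.1 at D15. The nearest members of the set were ITGA11 (0.90, rank 146 of all protein-coding genes) and LAMB1 (0.88, rank 216). The points share their columns and their depth.

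**Figure D1:**
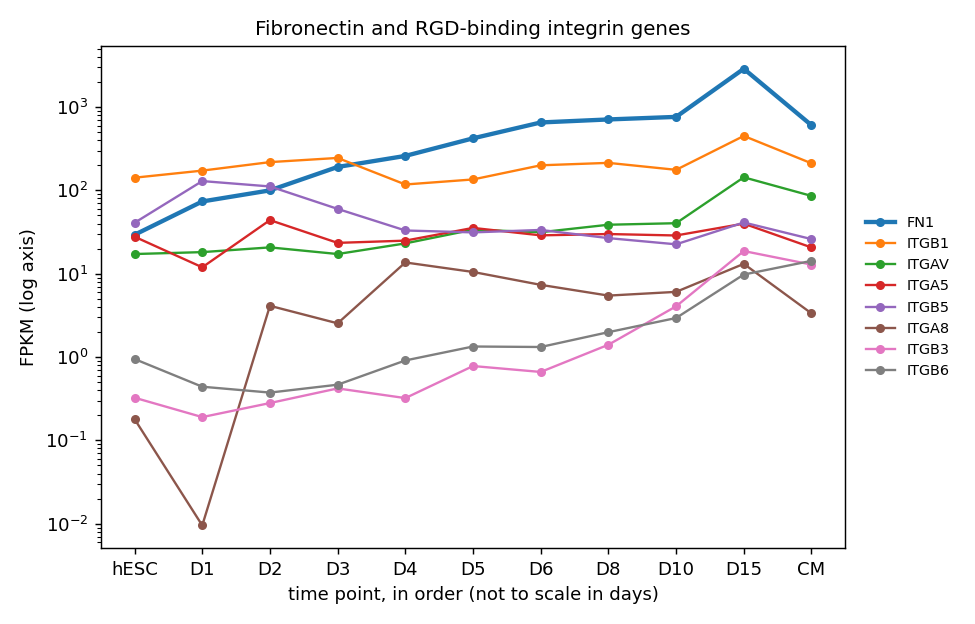
FPKM (log axis) of FN1 and 7 genes of RGD-binding integrins at the 11 time points, in order; each point is the authors' 1 value for that time point. FN1 runs from 29.3 in hESC to 2880 at D15, ITGB5 is highest at D1 (129), and ITGB3 and ITGB6 stay below 5 until D10.

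The genes of fibronectin's receptors did not share one course. ITGB1, the beta chain that pairs with most alpha chains, stood at 142 FPKM in hESC, 173 at D1, 218 at D2, 245 at D3, 118 at D4 and 135 at D5. Its later values were 199.9 at D6, 214 at D8, 176 at D10, 450.1 at D15 and 211 in cardiomyocytes. It held 56.0% (D1) to 85.6% (D8) of the summed FPKM of the 8 beta chains. ITGB5, a partner of the alphaV chain, was high early. It stood at 40.8 in hESC, 129 at D1, 111 at D2, 59.9 at D3, 33.0 at D4, 31.3 at D5, 33.5 at D6, 26.7 at D8, 22.5 at D10, 41.2 at D15 and 26.01 in cardiomyocytes. Its share of the beta chains was 41.9% at D1 and 7.76% at D15.

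ITGA5, the classical fibronectin receptor chain, stayed within 11.9 to 44.0 FPKM. It stood at 27.8 in hESC, 11.9 at D1, 44.0 at D2, 23.4 at D3, 24.9 at D4, 35.5 at D5, 28.9 at D6, 29.9 at D8, 28.8 at D10, 39.9 at D15 and 20.6 in cardiomyocytes. ITGAV, the alphaV chain, which binds vitronectin and fibronectin, lay between 17.2 and 23.1 FPKM to D4 and was higher from D5 on. It stood at 17.2 in hESC, 18.2 at D1, 20.7 at D2, 17.2 at D3, 23.1 at D4, 33.7 at D5, 31.5 at D6, 38.7 at D8, 40.4 at D10, 143.5 at D15 and 85.8 in cardiomyocytes. Of the summed FPKM of the 4 RGD-binding alpha chains ITGA5 held 61.5% at D2 and 18.3% in cardiomyocytes, and ITGAV 28.95% and 76.2%.

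ITGA8, whose receptor binds the matrix protein nephronectin, was almost absent at first and was first seen above 1 FPKM at D2. It stood at 0.180 FPKM in hESC, 0.00954 at D1, 4.12 at D2, 2.54 at D3, 13.6 at D4, 10.5 at D5, 7.35 at D6, 5.46 at D8, 6.05 at D10, 13.1 at D15 and 3.34 in cardiomyocytes. NPNT, the nephronectin gene, stood at 0.342 at D2, 9.81 at D3, 16.1 at D10 and 49.7 in cardiomyocytes. ITGB3, another partner of alphaV, stayed under 1 FPKM from hESC to D6 and then stood at 1.40 at D8, 4.06 at D10, 18.7 at D15 and 12.9 in cardiomyocytes. ITGB6, whose receptor activates TGF-beta, stood between 0.374 and 2.94 FPKM to D10, at 9.77 at D15 and at 14.3 in cardiomyocytes, its highest value. ITGB8 stayed within 2.58 to 5.92 throughout. In GENCODE 29, 51.6% of the exon bases of ITGB3 and 20.6% of those of ITGB6 are shared with another gene on the same strand, so reads of those genes may be counted between them.

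Of the 4 genes of laminin receptors, ITGA6 and ITGA7 were highest in hESC and ITGA3 and ITGB4 at D15. With columns scaled to equal sums ITGA6 was highest at D1 and the other 3 were highest where they had been. ITGA6, whose chain binds laminin in stem cells and epithelia, stood at 75.2 FPKM in hESC, 60.3 at D1, 45.6 at D2, 22.9 at D3, 18.7 at D4 and 7.88 at D5. From D6 on it lay between 7.66 (cardiomyocytes) and 12.4 (D15). ITGA7, the receptor chain of muscle, had its highest value in hESC too. It stood at 85.4 in hESC, 18.6 at D1, 20.1 at D2, 18.98 at D3, 12.5 at D4, 15.8 at D5, 14.6 at D6, 14.8 at D8, 12.9 at D10, 35.8 at D15 and 30.9 in cardiomyocytes. ITGA3, the third laminin-binding alpha chain, was lower than in hESC from D1 to D5 and higher from D6 on. It stood at 7.56 in hESC, 6.77 at D1, 4.32 at D2, 2.19 at D3, 5.33 at D4, 6.47 at D5, 10.2 at D6, 10.4 at D8, 10.4 at D10, 37.2 at D15 and 27.5 in cardiomyocytes.

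Of the summed FPKM of these 3 alpha chains ITGA6 held 44.7% in hESC, 70.4% at D1, 51.2% at D4 and 11.6% in cardiomyocytes. ITGA3 held 4.50%, 7.91%, 14.6% and 41.6% at the same points, and ITGA7 50.8%, 21.7%, 34.2% and 46.8%. ITGB4, the partner of alpha6 in the hemidesmosomes of surface epithelium, had its highest value at D15 (3.15 FPKM). Of 5 markers of surface epithelium KRT14 and TP63 stayed under 1 FPKM, KRT5 was highest at D15 too (1.37), and EPCAM and CDH1 were highest early (196 at D1 and 88.6 in hESC). Their part in the ITGB4 values was not tested.

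**Figure D2:**
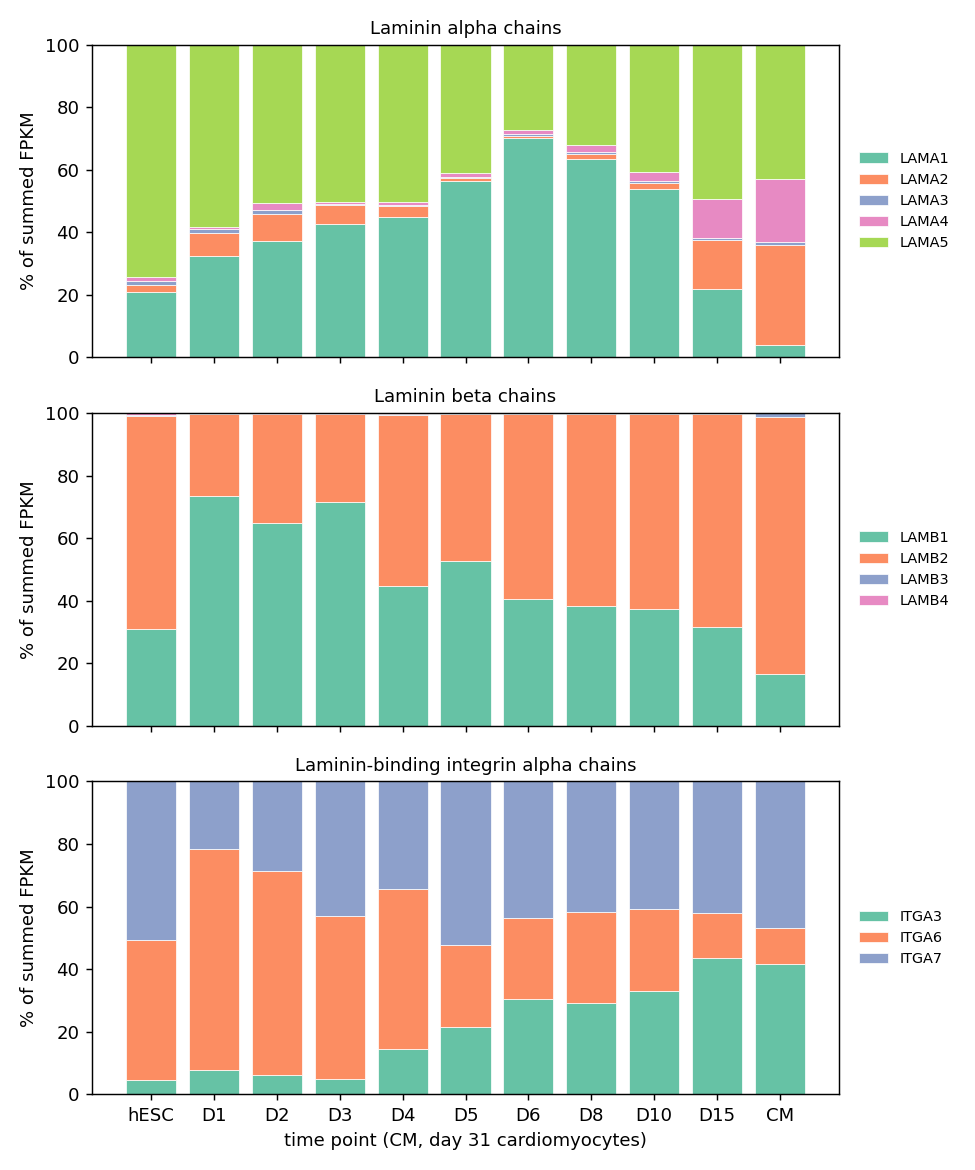
Share of each gene in the summed FPKM of its class (percent, stacked bars adding to 100) at the 11 time points, for laminin alpha chains, laminin beta chains and laminin-binding integrin alpha chains. LAMA1 holds 70.0% of the alpha chains at D6 and 4.00% in cardiomyocytes, LAMB2 26.2% of the beta chains at D1 and 82.5% in cardiomyocytes, and ITGA6 70.4% of its class at D1.

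Laminin alpha chains changed places in the course of differentiation. LAMA5, the chain of laminins that sustain stem cells, stood at 69.8 FPKM in hESC, 22.0 at D1, 19.8 at D2, 31.04 at D3, 41.4 at D4, 54.4 at D5, 27.2 at D6, 34.6 at D8, 59.3 at D10, 117 at D15 and 71.5 in cardiomyocytes. LAMA1, the chain of the earliest embryonic basement membranes, stood at 19.7 in hESC, 12.2 at D1, 14.6 at D2, 26.5 at D3, 37.1 at D4, 74.5 at D5, 69.6 at D6, 68.2 at D8, 78.2 at D10, 51.7 at D15 and 6.63 in cardiomyocytes. It is the only 1 of the 38 genes with its highest value at D10. LAMA2, the muscle chain, lay between 0.818 and 3.60 up to D10 and stood at 36.7 at D15 and 52.8 in cardiomyocytes. LAMA4, found in vessel walls and around muscle fibres, lay between 0.360 and 3.99 up to D10 and stood at 29.3 and 32.9 at the same points.

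As shares of the summed alpha chains, LAMA5 held 74.2% in hESC, 27.4% at D6 and 43.1% in cardiomyocytes. LAMA1 held 20.97%, 70.0% and 4.00%. LAMA2 held 2.32% in hESC and 31.9% in cardiomyocytes, and LAMA4 1.23% and 19.9%. LAMA3, a chain of skin basement membrane, did not exceed 1.97 FPKM. Endothelial cells also make LAMA4. The 4 endothelial markers measured summed to 18.6 FPKM at D10, 30.7 at D15 and 20.8 in cardiomyocytes, with CDH5 at 1.24, 2.27 and 0.834, and their part in the LAMA4 values was not tested. Of the exon bases of LAMA1 10.3% overlap an antisense gene, and since no strand setting is given, reads of the 2 cannot be told apart.

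The beta chains exchanged as well. LAMB1 stood at 20.6 FPKM in hESC, 52.3 at D1, 50.0 at D2, 53.5 at D3, 57.6 at D4, 78.6 at D5, 62.7 at D6, 67.0 at D8, 76.9 at D10, 145.7 at D15 and 51.2 in cardiomyocytes. LAMB2, the beta chain of mature muscle basement membrane, stood at 45.4 in hESC, 18.7 at D1, 26.8 at D2, 20.8 at D3, 70.3 at D4, 70.2 at D5, 91.4 at D6, 108 at D8, 128 at D10, 312 at D15 and 257 in cardiomyocytes. LAMB1 thus exceeded LAMB2 2.79-fold at D1, and LAMB2 exceeded LAMB1 2.20-fold in hESC and 5.03-fold in cardiomyocytes. LAMB3, which joins LAMA3 in a laminin of skin, was highest in cardiomyocytes (3.33).

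LAMC1, the gamma chain of most laminins, was abundant at every time point. It stood at 119 FPKM in hESC, 81.9 at D1, 61.1 at D2, 60.8 at D3, 70.1 at D4, 112 at D5, 98.3 at D6, 96.7 at D8, 98.3 at D10, 228 at D15 and 122 in cardiomyocytes. LAMC3 was highest at D1, at 9.001, and stood at 8.10 at D15. With columns scaled to equal sums it was highest at D15.

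The collagen receptors came late. ITGA1 stood at 1.52 FPKM in hESC, 1.72 at D1, 2.31 at D2, 2.63 at D3, 1.499 at D4, 4.95 at D5, 4.17 at D6, 5.99 at D8, 5.83 at D10, 69.6 at D15 and 16.2 in cardiomyocytes. The gene PELO lies inside ITGA1 on the same strand and shares 2.56% of its exon bases. ITGA11, a collagen receptor chain of fibroblasts, was highest at D15 (8.58). ITGA10 and ITGA2 were highest in cardiomyocytes (6.12 and 4.87). ITGA9, which binds tenascin among others, stood at 1.43 in hESC, 1.24 at D1, 7.52 at D2, 16.4 at D3 and between 8.01 and 11.8 from D4 on. TNC, the tenascin-C gene, stood at 4.56 at D1, 41.7 at D2 and 55.6 at D3. Its later course differed from that of ITGA9, with 119 at D4, 187 at D5, 28.2 at D10, 330 at D15 and 48.6 in cardiomyocytes. ITGA4 reached 3.19 at D15.

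Leukocyte integrins were low with the exception of ITGAE. ITGAL, ITGAM, ITGAX, ITGB2 and ITGB7 lay under 5 FPKM at every time point. PTPRC and TYROBP, defining leukocyte genes, stayed under 1 FPKM, and the 5 leukocyte markers summed to 2.03 to 5.50 FPKM. ITGAX nevertheless stood at 4.65 in hESC and at most 1.05 elsewhere, and ITGA2B, the chain of platelets, at 19.4 in hESC and at most 5.05 elsewhere, while the platelet genes GP9 and PF4 stayed under 1 and GP1BA stood at 1.27 in hESC and at most 1.93 (D15). ITGAE stood at 18.0 in hESC, 32.7 at D1, 32.8 at D2, 31.8 at D3, 12.9 at D4, 14.7 at D5, 21.6 at D6, 19.99 at D8, 16.9 at D10, 6.15 at D15 and 10.1 in cardiomyocytes. HASPIN, a mitotic kinase gene listed as GSG2, lies inside ITGAE on the other strand, shares 6.41% of its exon bases and stood at 12.2 at D3 and 1.34 at D15. ITGB7 shares 42.1% of its exon bases with ZNF740 on the other strand (15.3 FPKM at D3). The part of these neighbours in the values was not tested.

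**Figure D3:**
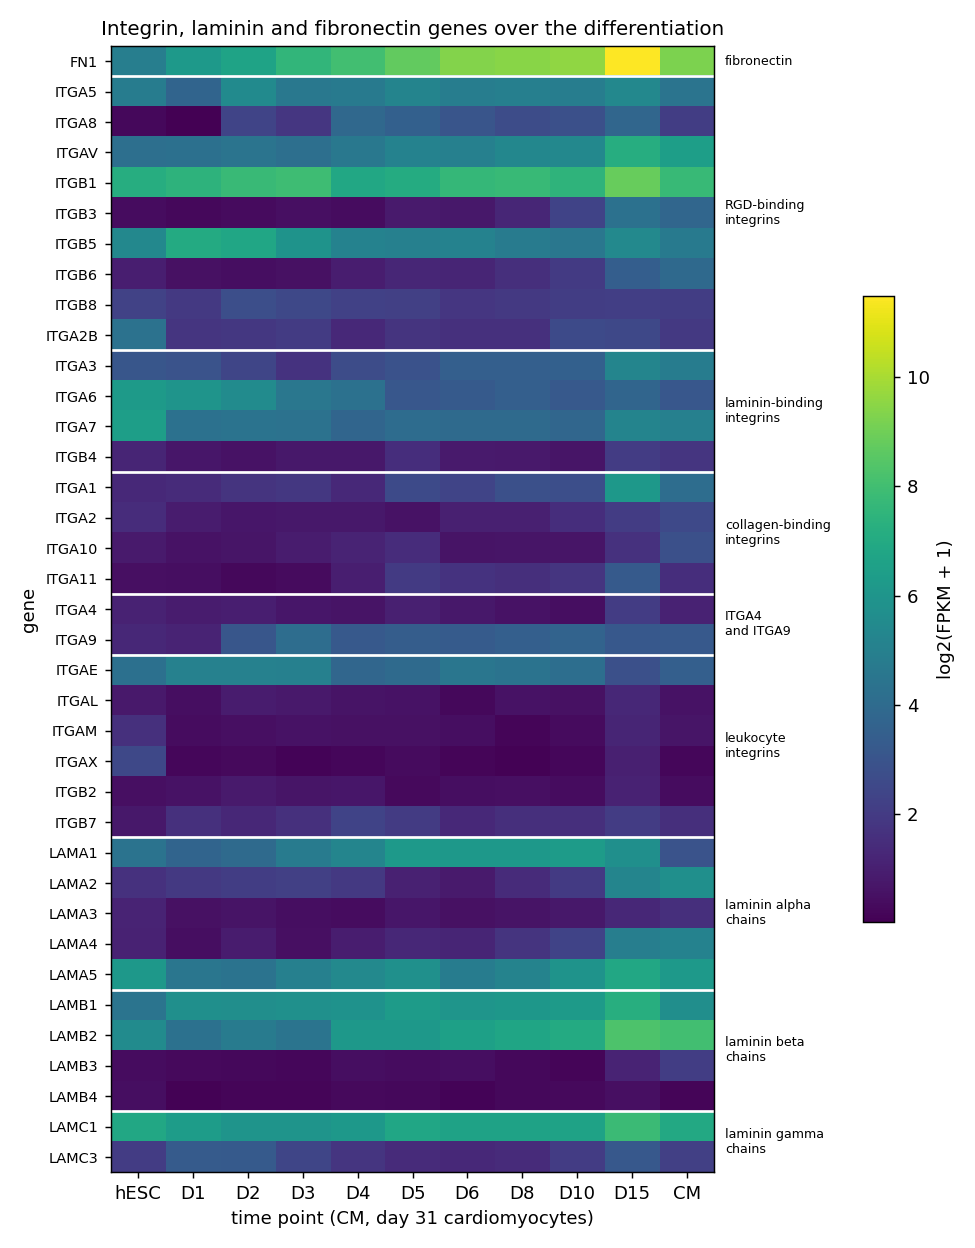
Levels of 37 of the 38 genes as log2(FPKM + 1), shown as colour, in rows grouped by role and in columns by time point; each cell is 1 value per time point. The D15 column holds the highest value of 15 of the 37 genes that reached 1 FPKM. ITGB1 and LAMC1 do not fall below 118 and 60.8 FPKM, while FN1 runs from 29.3 in hESC to 2880 at D15.

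Between hESC and D1, 5 of 37 genes were 2-fold higher (13.6% of protein-coding genes were) and 7 lower (11.1%), with a median log2 change of -0.23 against 0.02 for all protein-coding genes. Among the higher genes were FN1, ITGB5, LAMB1 and LAMC3. Lower were ITGA5, ITGA2B, ITGA7, ITGAM, ITGAX, LAMA5 and LAMB2. Scaled to equal sums, 8 were higher (40.7% of protein-coding genes) and 3 lower (3.62%), since ITGA5, ITGAM, LAMA5 and LAMB2 no longer passed and ITGB1, ITGAE and ITGB7 did. Unscaled, 13.5% of the members were higher and 18.9% lower.

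From D1 to D4, 6 of 37 genes were higher (background 9.49%) and 5 lower (14.2%), with a median of 0.14 against -0.07. The higher genes were FN1, ITGA5, ITGA8, ITGA9, LAMA1 and LAMB2, and ITGB5, ITGA6, ITGAE and LAMC3 were among the lower ones. ITGA8 had the largest difference, 3.86 on the log2(FPKM + 1) scale. ITGA5 was just past the threshold (1.00) and not past it after rescaling by medians (0.98).

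From D4 to D10, while cardiac muscle genes appeared, 7 genes were higher (5.59%) and 2 lower (3.17%), with a median of 0.36 against -0.02. FN1, LAMA1, LAMA4, ITGA1, ITGB3, ITGB6 and ITGA2B were higher, and ITGA6 and ITGA8 lower. LAMA1 (0.83) and ITGB6 (0.99) were short of 2-fold when columns were scaled to equal sums.

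The step from D10 to D15 stood out within the set: 19 of 37 genes were 2-fold higher against 6.0% of all protein-coding genes, and 1 was lower against 11.3%. The median change was 1.00 against -0.16. The largest differences were in ITGA1 (3.37), LAMA2 (3.26), LAMA4 (2.60), ITGB3 (1.96), FN1 (1.92) and ITGAV (1.80). ITGAE was the lower gene. By role, 3 of 4 laminin-binding, 5 of 9 RGD-binding and 2 of 4 collagen-binding integrin chains were higher, and 1 of the 2 genes ITGA4 and ITGA9. Of the laminin chains that reached 1 FPKM, 2 of 5 alpha, 2 of 3 beta and 3 of 3 gamma chains were higher. Of the 6 leukocyte integrins 0 were higher and 1 was lower on the unscaled values. Scaled to equal sums, ITGAL (1.11), ITGAM (1.21), ITGAX (1.15) and ITGB2 (1.04) were 2-fold higher, at levels up to 1.46 FPKM at D15 before scaling. ITGB7 (0.81) was not, and ITGAE remained lower. Unscaled, D15 held the highest value of 15 of the 37 genes, against 10.8% of protein-coding genes. With columns scaled to equal sums 27 were higher at D15 (13.2% of protein-coding genes) and D15 held the highest value of 20 (21.2%). Stromal markers moved in the same step: COL1A1, COL3A1, LUM, DCN, POSTN and PDGFRB, all 6 measured, summed to 864 FPKM at D10 and 3059 at D15, and cardiomyocyte markers to 3483 and 7346. The part of stromal cells in the higher values was not tested.

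Between D15 and day 31 cardiomyocytes, 1 gene was higher (8.19% of protein-coding genes) and 7 lower (3.21%), with a median of -0.58 against 0.23. This difference spans both time and purification, which cannot be told apart, and it shares its D15 column with the step before. Lower were LAMA1 (-2.79), FN1 (-2.25), ITGA1 (-2.04), ITGA11 (-1.75), ITGA8 (-1.70), LAMB1 (-1.49) and ITGB1 (-1.09). ITGA10, a collagen receptor chain known from cartilage, was higher (1.17). LAMA2 and LAMA4 were not lower, with differences of 0.51 and 0.16. The summed stromal markers stood at 945 FPKM in the purified cells, most of it from COL3A1 (609) and COL1A1 (224). Each of the markers was lower than at D15, but not alike: LUM stood at 108 at D15 and 16.6 in the purified cells, and POSTN at 83.2 and 62.4. The part of stromal cells in the lower values was not tested. The count of lower genes depends on the scale: 14 were lower with columns scaled to equal sums (6.90% of protein-coding genes) and 13 with a pseudocount of 0.1 (9.48%).

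**Figure D4:**
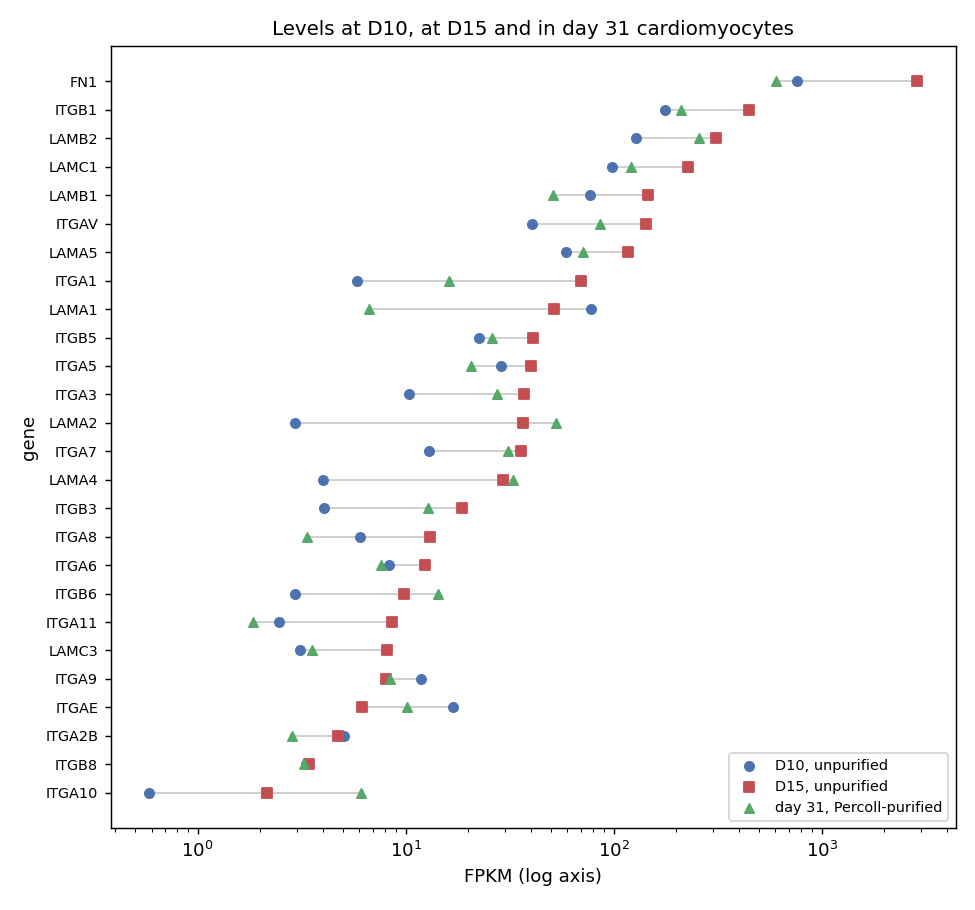
FPKM (log axis) at D10, at D15 (both unpurified) and in Percoll-purified day 31 cardiomyocytes for genes that reached 5 FPKM, ordered by the D15 level; each point is 1 value. LAMA2 runs from 2.93 to 36.7 and 52.8, while FN1 runs from 762 to 2880 and back to 605.

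Over the whole course, 16 of 37 genes were higher in cardiomyocytes than in hESC (19.2%) and 5 lower (18.8%), with a median of 0.60 against 0.01. All 4 collagen-binding chains and all 3 laminin beta chains that reached 1 FPKM were higher. FN1 (4.32), LAMA2 (4.08), LAMA4 (3.97), ITGB3 (3.39), ITGB6 (2.97) and ITGA1 (2.77) had the largest increases. The lower genes were ITGA6 (-3.14), ITGA2B (-2.41), ITGAX (-2.30), LAMA1 (-1.44) and ITGA7 (-1.44). Scaled to equal sums, ITGA7 and LAMA1 did not pass (-0.49 and -0.55), and 21 were higher (41.9% of protein-coding genes) and 3 lower (7.11%). With D1 in place of hESC, chosen after seeing the data, 18 genes were higher (19.2% of protein-coding genes) and 4 lower (21.9%).

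Related genes were counted from lists fixed by function, to be read against the shares of protein-coding genes given above for each step and their medians of -0.02 (D10 against D4), -0.16 (D15 against D10) and 0.23 (cardiomyocytes against D15). Of 8 genes of basement membrane partners, D10 had 5 higher and 0 lower than D4 (median log2 change 1.13), and D15 had 5 higher and 0 lower than D10 (1.10). At D15 COL4A1 and COL4A2, the common collagen IV chains, stood at 285 and 363 FPKM and HSPG2, perlecan, at 157. Of 14 other integrin ligands, 8 were higher and 0 lower at D15 than at D10 (median 1.35), and 1 higher and 8 lower in cardiomyocytes than at D15 (median -1.20). Of 24 adhesion adaptors, which link integrins to actin, 2 were higher and 1 lower at D15 than at D10 (median -0.06). ITGB1BP2, the muscle integrin partner melusin, stood at 2.76 at D4, 20.8 at D8 and 49.0 in cardiomyocytes. TLN1, the integrin activator talin, stood at 22.1 in hESC and 63.2 in cardiomyocytes. The lists were made with earlier results of these data known.

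The sort tables hold the authors' own comparison of each pair of populations and list only genes with a q-value under 0.05, so a gene missing from them cannot be read as equal. They give 1 FPKM value per population and no spread. At D3, 8 of the 38 genes were higher in ROR2-positive cells, against 15.6% of all genes tested, and 4 were lower, against 12.6%. At D4, 10 were higher in PDGFRa-positive cells (17.8%) and 8 lower (19.7%). The number of genes the authors tested, 16466 at D3 and 12892 at D4, was inferred from their p- and q-values, and how many of the 38 were tested is not known. The median log2 fold change of the genes listed was 1.09 at D3 and 0.48 at D4, against 0.46 and -0.37 over all genes listed.

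ITGA8 and ITGA9 had the largest fold changes of the genes higher in the positive cells, in both sorts. By the authors' deposited table ITGA8 stood at 0.206 FPKM in ROR2-negative and 8.83 in ROR2-positive D3 cells (log2 fold change 5.42, q = 0.000375). In PDGFRa-negative and positive D4 cells the authors' deposited table gives it 2.38 and 16.1 (2.75, q = 0.000269). ITGA9 stood at 2.93 and 35.3 at D3 (3.59, q = 0.000375) and at 1.53 and 9.45 at D4 (2.62, q = 0.000269) in the authors' deposited tables. Both chains pair with ITGB1, for which the authors' deposited D4 table lists 123 and 154 FPKM (0.33, q = 0.0381). Of 14 other integrin ligands 7 were higher and 3 lower at D3, and 7 higher and 1 lower at D4. In the authors' deposited tables TNC stood at 17.3 and 79.3 at D3 and at 27.1 and 333.6 at D4, and NPNT at 2.39 and 17.6, then 1.33 and 15.5. SPP1, osteopontin, was lower in both, at 89.5 and 12.0, then 15.8 and 6.72, in the authors' deposited tables.

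ITGA5, LAMA1, LAMB2 and LAMC3 were also higher in the positive cells of both sorts. LAMA1 stood at 11.4 and 45.2 FPKM at D3 (1.99) and at 66.9 and 117 at D4 (0.80) in the authors' deposited tables. LAMC3 stood at 2.45 and 5.82 (1.25), then 1.48 and 6.71 (2.18) in the authors' deposited tables. ITGA5 (1.35 and 0.78) and LAMB2 (0.92 and 0.97) had smaller fold changes in the authors' deposited tables. In the authors' deposited tables ITGA3 (1.67) was listed as higher at D3, and LAMC1 (0.94), ITGAE (0.64) and ITGB3 (1.56, at 0.304 and 0.894 FPKM) at D4.

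ITGA2, ITGA7 and LAMA2 were lower in the positive cells of both sorts. ITGA7 stood at 26.5 and 11.3 FPKM at D3 (-1.23) and at 33.1 and 14.5 at D4 (-1.19) in the authors' deposited tables. ITGA2 had the largest fold change of all members listed at D4 (-3.43) in the authors' deposited table, at low levels. It stood at 1.51 and 0.542, then at 2.01 and 0.187, in the authors' deposited tables. On the log2(FPKM + 1) scale its D4 difference was -1.34, against 2.33 for ITGA8 and -2.32 for ITGA6. LAMA2 stood at 8.51 and 2.84, then 2.36 and 1.06, in the authors' deposited tables. LAMA4 was listed as lower at D3, and ITGA6, ITGB8, ITGB7 and ITGAL at D4. ITGA6 stood at 32.9 in PDGFRa-negative and 5.80 in positive cells (-2.50, q = 0.000269) and ITGB8 at 11.3 and 3.41 (-1.72, q = 0.000269) in the authors' deposited table. Beside these, all 5 pluripotency markers and EPCAM and CDH1 were lower in the ROR2-positive D3 cells, with POU5F1 at 449 and 87.3 FPKM, while SOX17 (0.664 and 12.5) and FOXA2 (1.15 and 9.40) were higher in the authors' deposited table. At D4, 4 of 5 pluripotency markers were lower in the PDGFRa-positive cells, with SOX2 at 13.7 and 0.529, and so were EPCAM (133.5 and 19.6) and CDH1 (41.9 and 3.90). Of 6 endoderm markers SOX17 (10.1 and 2.30) and FOXA2 (23.0 and 3.16) were lower and APOA1 and AFP higher, all by the authors' deposited table. In both sorts 4 of 6 stromal markers were higher in the positive cells, and POSTN was lower at D4. Their levels differed between the sorts in the authors' deposited tables. At D3 LUM (0.0657 and 0.473 FPKM) and COL3A1 (0.802 and 1.46) were near the floor, and COL1A1 stood at 5.19 and 12.8 and PDGFRB at 2.00 and 7.96. At D4 LUM stood at 0.717 and 24.8, COL3A1 at 1.08 and 76.8, COL1A1 at 28.7 and 145.7 and PDGFRB at 8.43 and 43.4. All 5 cardiomyocyte markers were higher in the PDGFRa-positive D4 cells, with TNNT2 at 3.60 and 63.3 FPKM in the authors' deposited table. The part of these cells in the differences was not tested.

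FN1 went opposite ways. By the authors' deposited tables it stood at 162 FPKM in ROR2-negative and 286 in ROR2-positive D3 cells (0.82, q = 0.000709), and at 701 in PDGFRa-negative and 484 in PDGFRa-positive D4 cells (-0.53, q = 0.0478). The second q-value lies close to the threshold, and the difference between the sorts was not tested. COL4A1 did likewise in the authors' deposited tables, with 31.9 and 48.1 at D3 and 74.0 and 41.8 at D4. Of the 10 genes in both tables (83.3% of the 12 at D3 and 55.6% of the 18 at D4) 9 had the same direction in both, FN1 being the exception. Of the 2161 genes listed in both, members or not (46.5% of the D3 list and 44.8% of the D4 list), 75.2% did.

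**Figure D5:**
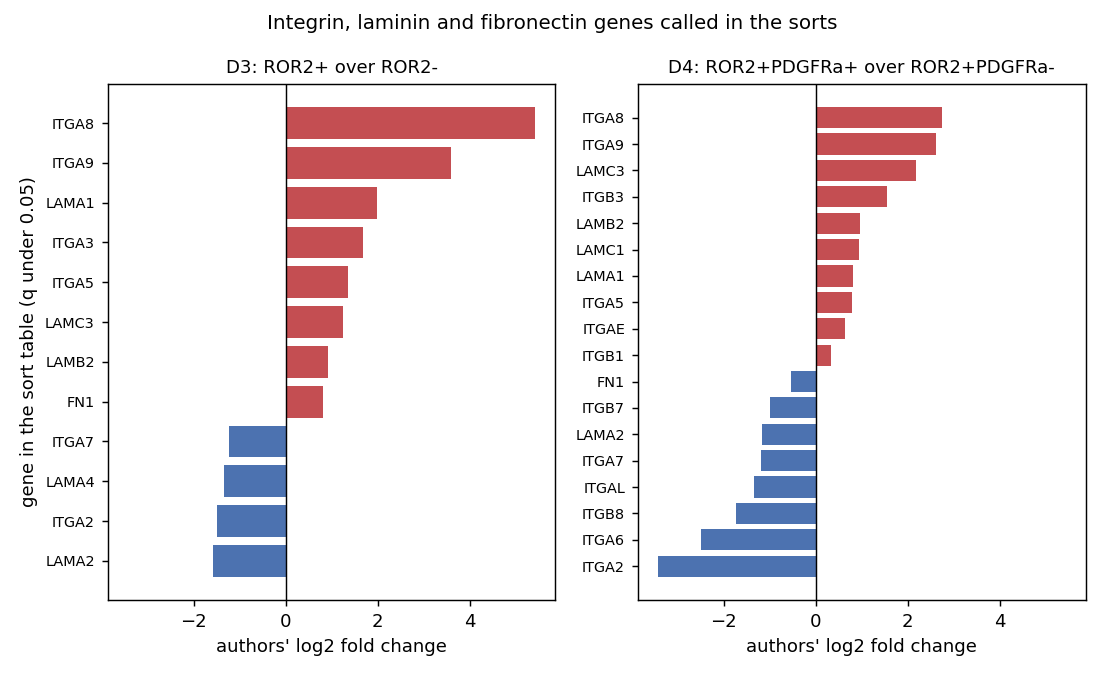
The authors' log2 fold change (positive over negative population, bars from 0) of the genes listed in the sort tables, 12 at D3 (left) and 18 at D4 (right); red bars are higher and blue bars lower in the positive cells. ITGA8 and ITGA9 are at the top of both panels, and FN1 is at 0.82 on the left and -0.53 on the right.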

How the data were processed

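Total RNA was depleted of ribosomal RNA and sequenced as read pairs, per the labels' protocols. TopHat2 2.0.8b, Bowtie2 2.1.0.0, Cufflinks and the build hg19 are named in the submitters' processing notes. Which annotation was used, how strand was set and if columns were scaled to each other is not given in the sources used here. The authors deposited FPKM values, 1 per gene and group, so the unit keeps no read depth and no replicate spread. The sort tables also hold, per the file headers, the authors' log2 fold changes, p-values and q-values, for genes with a q-value under 0.05. Locus starts were read as counted from 0, because 1921 loci then had the length of their GENCODE 29 gene, against 59.

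Entries under 1 FPKM at every time point were left out (21715 kept), and gene types came from GENCODE 29 by name. A pseudocount of 1 was used, and counts and rescaling were checked on simulated data. Python 3.11.15 and pandas 2.3.3 were used. Every gene of the set may be named, and those reaching 20 FPKM (17) are given at all or nearly all time points. The set, its roles and the lists of related genes were chosen with earlier results of these data known. Alternatives were another pseudocount, other filters, 2 scalings, a 1.5-fold threshold and stricter calls for the sorts. The values of 1 gene, which enters the counts, are not reported here.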

Additional observations from a re-analysis of the deposited data

How the results depend on the processing

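Of 94 recomputed counts 74 stayed within 1.5 times the reported count. Among them were all counts with a filter at 5 FPKM and after rescaling by the median of ratios. The 12 counts without a filter are also among the 74, but they could not move. Leaving out the filter adds only LAMB4, whose highest value of 0.392 FPKM is too low for a 2-fold call with a pseudocount of 1. The share of protein-coding genes under the same setting follows each count in brackets. Scaled to equal sums, 8 genes were higher (40.7%) and 3 lower (3.62%) at D1 than in hESC. On that scale 14 were lower in cardiomyocytes than at D15 (6.90%), and 3 were lower than in hESC (7.11%). With a pseudocount of 0.1, 11 were lower at D1 than in hESC (18.8%). In cardiomyocytes 2 were then higher (11.2%) and 13 lower (9.48%) than at D15. At a 1.5-fold threshold, 11 were lower at D1 than in hESC (21.8%) and 12 higher at D10 than at D4 (12.3%). At D15, 2 were then lower than at D10 (27.8%). In cardiomyocytes 3 were higher (27.9%) and 18 lower (10.3%) than at D15, and 8 were lower than in hESC (29.2%). Against D10 in place of D15, added after seeing the data, 14 were higher (8.75% of protein-coding genes) and 1 lower (4.81%) in cardiomyocytes. When the sort calls also had to be 2-fold on the log2(FPKM + 1) scale, 5 were higher and 2 lower at D3, and 3 higher and 4 lower at D4. By the authors' own fold changes in the deposited tables, 6 were at least 2-fold higher and 4 lower at D3. At D4, 4 were higher and 6 lower by them. This choice was made after seeing the data. The share of all genes passing either of these stricter calls was not computed, so these counts have no background to be read against. For the other moves the cause was not tested. No paired analysis was possible because the tables give 1 value per group, so neither a replicate block nor a fit without a replicate could be run. FPKM without counts sets no limit on the precision of low values, which stays unknown.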
